A study of Homo sapiens with 6 samples.

Results

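Transcripts of 7 architectural factors were examined: *CTCF*, its paralog *CTCFL*, *MAZ*, *YY1*, *ZNF143*, *LDB1* and *VEZF1*. They were selected by symbol from the count table, and all 7 are listed among its 30017 symbols. 6 of the 7 had enough counts to be tested, among 14758 tested genes, and *CTCFL* had none. The transcripts were measured by RNA-seq in the line BLaER1-CTCF-mAID. It derives from a human B cell leukemia and converts into induced macrophages (iMacs) when estradiol switches on the exogenous transcription factor CEBPA in the presence of the cytokines IL-3 and CSF-1. CTCF is fused to a degron in all 6 libraries, and adding the auxin indole-3-acetic acid (IAA) targets the protein for degradation. The 3 groups hold 2 replicate libraries each. The first was taken before induction (0 h), the second 96 h after induction with no auxin added (96 h control), and the third also at 96 h, from cells given IAA at the same time as the conversion factors (96 h CTCF-depleted). No degron-free line treated with IAA was analysed here. Effects of IAA itself and of CTCF loss therefore cannot be told apart, and all values come from a single subclone.

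CTCF is a zinc finger protein that binds insulator sites and halts the cohesin ring as it extrudes chromatin loops. CTCFL, also called BORIS, shares its DNA-binding zinc fingers and is known from the male germ line. The other factors have been linked to contacts between promoters, enhancers and boundaries: MAZ and VEZF1 are zinc finger proteins that bind G-rich DNA, YY1 can bridge promoters and enhancers, ZNF143 binds promoters, and LDB1 is a self-associating adaptor that binds no DNA itself and is recruited through LIM domain proteins.

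Total counts ranged from 9273470 to 12718780 per library. Summed over 10 B cell markers, the level fell from between 3888 and 3939 CPM (counts scaled to library size with TMM factors) at 0 h to between 407 and 412 CPM in control and between 358 and 374 CPM in CTCF-depleted cells. Over 8 macrophage markers it rose from between 33.0 and 36.3 CPM to between 4938 and 5185 CPM in control and between 4781 and 4818 CPM in CTCF-depleted cells. All 10 B cell and all 8 macrophage markers passed the thresholds for differential expression in these directions in both comparisons against 0 h. Of 3 T cell markers, *CD3D* and *CD3G* had no counts, and the 3 together reached at most 0.0926 CPM. Some markers also passed the thresholds between CTCF-depleted and control cells. Of the 10 B cell markers, 1 was higher and 3 were lower in CTCF-depleted cells, and of the 8 macrophage markers 1 was higher and 1 lower. Over all tested genes, 5.41% were higher and 7.03% lower at these thresholds. Because the samples are bulk RNA, fewer cells of a type and less RNA per cell cannot be told apart, and the part of these marker shifts in the values below was not tested.

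*CTCF* transcripts were lower at 96 h than at 0 h in both conditions, short of the fold change threshold given below. In hg38 the gene lies on the plus strand of chromosome 16, from 67562467 to 67639177. Its raw counts were 2235 and 2849 at 0 h, 2048 and 1875 without IAA at 96 h, and 2062 and 2051 with IAA. Scaled for library size, this corresponds to 231 and 214 CPM at 0 h, 181 and 174 CPM in control and 191 and 189 CPM in CTCF-depleted cells. The 0 h libraries were thus highest, and the CTCF-depleted libraries lay above the control libraries without overlap. The degron acts on the protein, so these counts do not measure the depletion. From 0 h to 96 h in control cells, the change of *CTCF* was -20.1% (log2FC, the log2 fold change, -0.32 ± 0.05 SE; edgeR quasi-likelihood fit, adjusted p = 8.55e-08). In CTCF-depleted cells it was -14.3% relative to 0 h (log2FC -0.22 ± 0.05 SE, edgeR adjusted p = 7.45e-05). Between CTCF-depleted and control cells the log2 fold change was 0.10, with a 95% confidence interval from -0.0025 to 0.20 (adjusted p = 0.119 from edgeR). Over the alternative settings the log2 fold change ranged from 0.10 to 0.16, so that the main fit lay at the low end. The lowest adjusted p among these edgeR and DESeq2 fits was 0.0129.

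*CTCFL* (chromosome 20, 57495966 to 57525652, minus strand) had 0 counts in each of the 6 libraries. A count of 0 allows up to 3 counts, or between 0.225 and 0.309 CPM depending on the library, a limit that covers counting error only. Per kilobase of exon, *CTCF* was at least 552-fold to 839-fold higher than *CTCFL* in the individual libraries, with *CTCFL* set to 3 counts. Transcripts of the paralog were therefore not detectable at this depth at 0 h, at 96 h or after CTCF depletion, and no fold change between groups can be given.

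**Figure D1:**
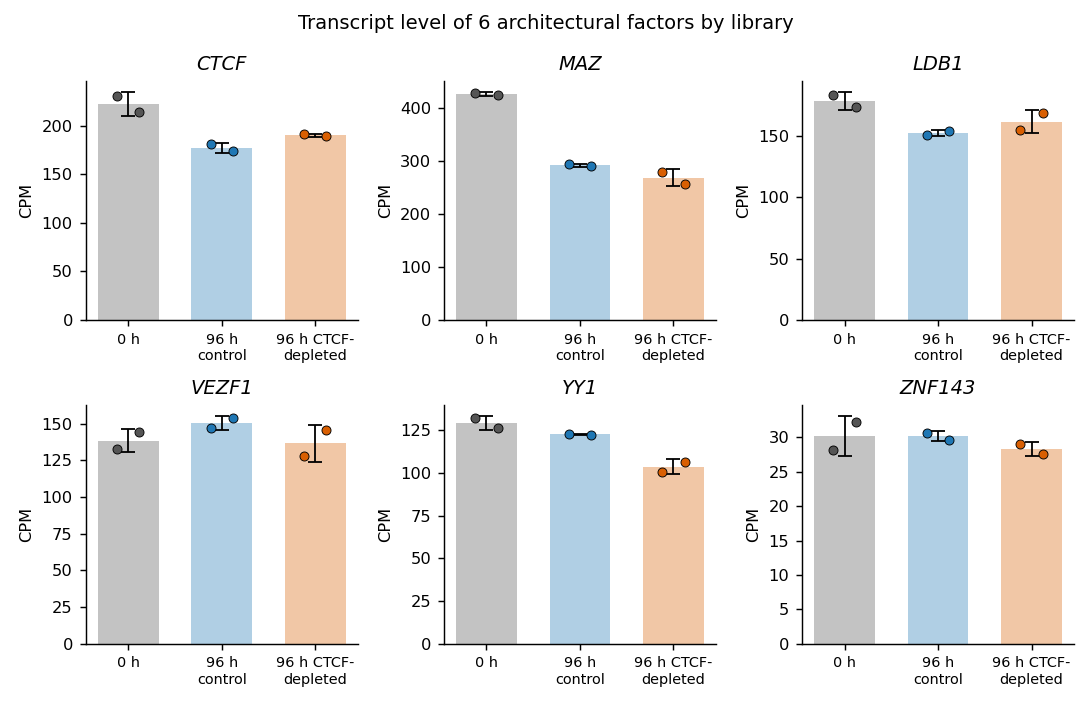
Level of the 6 detected factors in CPM (vertical axes, each from 0) at 0 h, in 96 h control and in 96 h CTCF-depleted cells; points are libraries, bars means and error bars the SD of 2 replicates. *MAZ* lies at 429 and 425 CPM at 0 h and between 257 and 295 CPM in the 4 libraries at 96 h, and *YY1* is lowest in the CTCF-depleted libraries, at 101 and 107 CPM.

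*MAZ* had the largest change from 0 h among the 6 detected factors in both conditions. The gene (chromosome 16, 29806106 to 29811164, plus strand) had 429 and 425 CPM at 0 h, 295 and 291 CPM in control and 280 and 257 CPM in CTCF-depleted libraries. All libraries at 96 h were below the 0 h libraries, and the CTCF-depleted libraries were below the control libraries. In control cells the change of *MAZ* was -31.4% (log2FC -0.54 ± 0.05 SE, edgeR adjusted p = 9.27e-16), short of the fold change threshold of 0.6. In CTCF-depleted cells it fell by 37.1% (log2FC -0.67 ± 0.05 SE, edgeR adjusted p = 3.00e-19) and passed both thresholds. A smaller absolute log2 fold change in this comparison was found for 46.5% of all tested genes. Without CTCF-depleted replicate 2 the log2 fold change of *MAZ* was -0.58, short of the fold change threshold. The difference between the 2 conversions, tested as CTCF-depleted against control, was -0.12 (95% confidence interval -0.22 to -0.03, adjusted p = 0.0345 from edgeR) and was not called. It was -0.033 without CTCF-depleted replicate 2 (adjusted p = 0.742 from edgeR), and DESeq2 gave an adjusted p of 0.161.

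*LDB1* (chromosome 10, 102106489 to 102120368, minus strand) measured 183 and 173 CPM at 0 h, 150 and 154 CPM in control and 154 and 168 CPM in CTCF-depleted libraries. The 0 h libraries were highest, and the lower CTCF-depleted library lay just above the higher control library. The change of *LDB1* in control cells was -14.5% (log2FC -0.23 ± 0.05 SE, edgeR adjusted p = 1.82e-04). In CTCF-depleted cells the change from 0 h was -0.14 with an adjusted p of 0.0153 in edgeR, and the difference to control was 0.09 (95% confidence interval -0.02 to 0.19, adjusted p = 0.227).

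*YY1* (chromosome 14, 100238298 to 100282788, plus strand) was the single factor with an adjusted p below 0.01 between CTCF-depleted and control cells. It measured 132 and 127 CPM at 0 h, 123 and 122 CPM in control and 101 and 107 CPM in CTCF-depleted libraries. The CTCF-depleted libraries were the lowest, and the 0 h and control libraries lay close together. The change of *YY1* upon depletion was -15.4% (log2FC -0.24 ± 0.06 SE, edgeR adjusted p = 9.33e-04), and the 95% confidence interval of -0.36 to -0.12 stays inside the fold change threshold, so that it was not called. In control cells the change from 0 h was -0.08 (adjusted p = 0.238 from edgeR), compared with -0.32 in CTCF-depleted cells (adjusted p = 4.34e-06). With DESeq2 the adjusted p for depletion was 0.0150. With edgeR it was 0.0501 without control replicate 1, 0.0426 without control replicate 2 and 0.124 without CTCF-depleted replicate 1, where the log2 fold change was -0.16.

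*VEZF1* (chromosome 17, 57971547 to 57988259, minus strand) measured 133 and 144 CPM at 0 h, 147 and 154 CPM in control and 128 and 146 CPM in CTCF-depleted libraries. The CTCF-depleted replicates differed by 12.9% of their mean, the widest gap of any factor at 96 h, and overlapped the 0 h range. The log2 fold change was 0.12 in control cells against 0 h (adjusted p = 0.0674 from edgeR) and -0.14 upon depletion (95% confidence interval -0.26 to -0.02, adjusted p = 0.0573). The value upon depletion was -0.0093 without CTCF-depleted replicate 1 (adjusted p = 0.952 from edgeR) and -0.21 without CTCF-depleted replicate 2 (adjusted p = 0.0276). In CTCF-depleted cells against 0 h it was -0.02 (adjusted p = 0.749 from edgeR). *ZNF143* (chromosome 11, 9460319 to 9528524, plus strand), with the fewest counts of the 6 factors, measured 28.2 and 32.3 CPM at 0 h, 30.7 and 29.6 CPM in control and 29.1 and 27.5 CPM in CTCF-depleted libraries. These ranges overlapped between 0 h and either condition at 96 h. Its log2 fold changes were -0.01 in control cells and -0.10 in CTCF-depleted cells against 0 h and -0.09 upon depletion, with adjusted p-values of 0.924, 0.322 and 0.481 in edgeR.

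The strand setting of the counting is not known, so that reads from the noncoding genes annotated across parts of *CTCF*, *MAZ*, *YY1*, *ZNF143* and *VEZF1* cannot be told apart from theirs.

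The factors were set beside all tested genes. Differential expression was called at the thresholds of the study's methods, which require an adjusted p under 0.01 together with a log2FC beyond 0.6 in either direction. In control cells against 0 h, 0 of the 6 factors were called, although 3 had an unadjusted edgeR p under 0.05; DESeq2 likewise called 0. Over all tested genes, 25.4% were called higher and 22.9% lower. In CTCF-depleted cells against 0 h, 0 factors were called higher and 1 was called lower, compared with 27.2% and 25.2% of all tested genes. In CTCF-depleted against control cells, 0 factors were called, although 3 had an unadjusted edgeR p under 0.05; DESeq2 likewise called 0. Over all tested genes, 5.41% were called higher and 7.03% lower, so that a count of 0 among 6 factors is near the share over all genes. At an adjusted p below 0.01 regardless of fold change, 3 of 6 factors differed from 0 h in control cells (background 68.2%), 3 in CTCF-depleted cells (background 71.0%), and 1 between the conditions at 96 h (background 29.4%). The groups did not overlap in 5, 4 and 6 of the 6 factors in these comparisons, against 86.7%, 87.8% and 67.9% of all tested genes. The median absolute log2 fold change of the 6 factors was 0.17 in control cells against 0 h, compared with 0.66 over all tested genes. It was 0.18 in CTCF-depleted cells against 0 h and 0.11 upon depletion, compared with 0.74 and 0.23 over all tested genes. For depletion, the 95% confidence intervals of 6 of 6 factors lay within the fold change threshold in either direction. The share of all tested genes with such an interval was not computed, so this count cannot be read as particular to the factors.

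**Figure D2:**
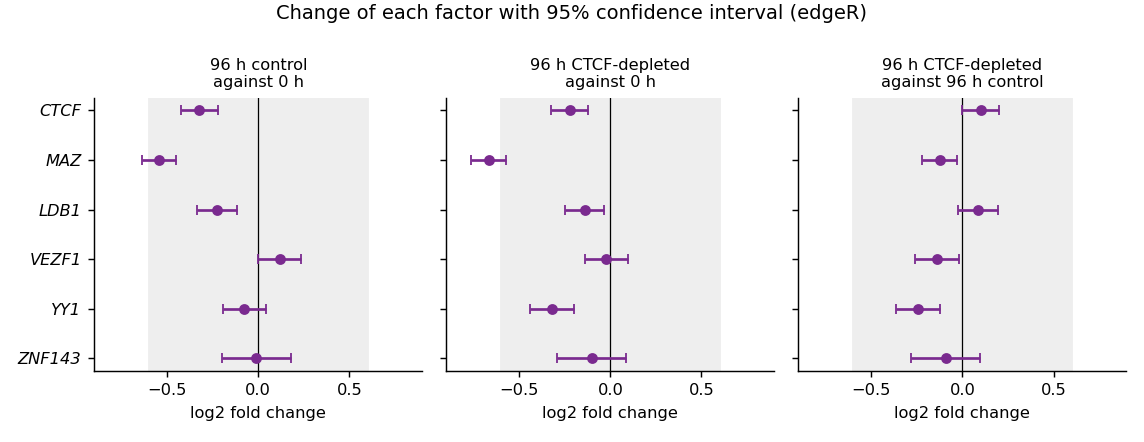
Log2 fold change (horizontal axes) of the 6 detected factors in the 3 comparisons; points are edgeR estimates, bars 95% confidence intervals, and the grey band spans the fold change threshold of 0.6 in either direction. The estimate of *MAZ* alone leaves the band, at -0.67 in CTCF-depleted cells against 0 h, and in the right panel all 6 intervals lie inside it.

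Levels were compared between the factors after division of CPM by the length of all annotated exons in kilobases. *MAZ* was highest, with 122 ± 0.92 at 0 h, 83.3 ± 0.80 in control and 76.5 ± 4.63 CPM per kilobase in CTCF-depleted cells (SD, n = 2 each). In control cells the order below it was *LDB1* with 40.2 ± 0.69, *VEZF1* with 30.6 ± 0.94, *CTCF* with 17.5 ± 0.50, *YY1* with 12.6 ± 0.03 and *ZNF143* with 7.15 ± 0.18 CPM per kilobase (SD, n = 2 each). The order was the same in the 3 groups, and no neighbours in it overlapped between their libraries. The closest neighbours were *VEZF1* and *CTCF* at 0 h, which differed 1.28-fold. *MAZ* exceeded *LDB1*, the next factor, 2.58-fold at 0 h, 2.07-fold in control and 1.79-fold in CTCF-depleted cells. Exon lengths came from all annotated isoforms, 10.1 kb for *CTCF* and 3.51 kb for *MAZ*, and those used in these cells are not known, so that the order depends on the annotation.

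**Figure D3:**
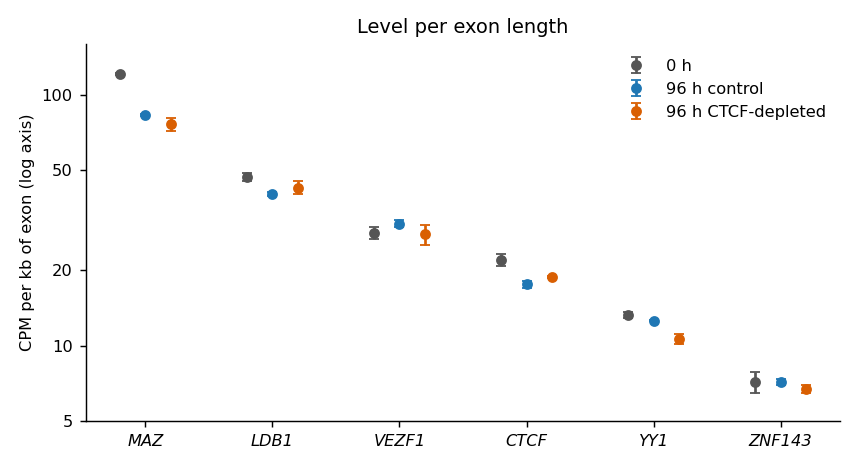
Level of each factor in CPM per kilobase of exon (log axis) at 0 h, in 96 h control and in 96 h CTCF-depleted cells; points are means and bars the SD of 2 replicates. The order from *MAZ* to *ZNF143* is the same in the 3 groups, while the distance from *MAZ* to *LDB1* narrows from 2.58-fold at 0 h to 1.79-fold in CTCF-depleted cells.

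Promoter sequences are shown for the 3 factors that were lower in control cells than at 0 h at an adjusted p below 0.01, for *YY1*, which was lower upon depletion at that level, and for *CTCFL*, which had no counts. All 7 factors were found in the RefSeq promoter table (GRCh38.p14), with 9 windows of the 250 bases before a start site, 3 of them for *CTCFL*. The *CTCFL* window shown is the one of the 3 that lies outside annotated exons, and it was chosen after its matches were seen. For *CTCF* the last 59 bases of its window are annotated as untranslated region in GENCODE release 44 and are left out. The windows of *MAZ*, *LDB1* and *YY1* lie within longer annotated isoforms of the same genes, outside their exons. Sequences run from 5′ to 3′ on the strand of the gene. Capitals mark matches on either strand to GGGAGGG, the G-rich motif of MAZ, or to a core of the CTCF motif.
CTCF, chr16:67562276-67562466, plus strand: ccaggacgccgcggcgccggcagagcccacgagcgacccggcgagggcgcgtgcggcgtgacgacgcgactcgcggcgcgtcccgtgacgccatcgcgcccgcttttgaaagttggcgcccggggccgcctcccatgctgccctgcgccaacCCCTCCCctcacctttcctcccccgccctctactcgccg
MAZ, chr16:29806279-29806528, plus strand: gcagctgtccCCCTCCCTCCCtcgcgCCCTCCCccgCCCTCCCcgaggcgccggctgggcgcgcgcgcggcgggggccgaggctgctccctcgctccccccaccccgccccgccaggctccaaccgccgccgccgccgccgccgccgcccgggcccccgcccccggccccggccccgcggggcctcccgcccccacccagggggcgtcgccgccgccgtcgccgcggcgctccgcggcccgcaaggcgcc
LDB1, chr10:102115003-102115252, minus strand: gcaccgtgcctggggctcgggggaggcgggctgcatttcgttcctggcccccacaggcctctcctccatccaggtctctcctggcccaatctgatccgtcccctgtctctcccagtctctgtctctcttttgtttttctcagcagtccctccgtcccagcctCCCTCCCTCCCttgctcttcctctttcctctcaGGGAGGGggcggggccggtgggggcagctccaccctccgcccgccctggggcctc
YY1, chr14:100238894-100239143, plus strand: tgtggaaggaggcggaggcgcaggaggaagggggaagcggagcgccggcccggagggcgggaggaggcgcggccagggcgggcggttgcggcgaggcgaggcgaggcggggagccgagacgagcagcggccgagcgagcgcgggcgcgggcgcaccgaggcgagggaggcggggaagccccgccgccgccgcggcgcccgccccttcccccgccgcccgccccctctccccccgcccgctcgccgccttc
CTCFL, chr20:57525653-57525902, minus strand: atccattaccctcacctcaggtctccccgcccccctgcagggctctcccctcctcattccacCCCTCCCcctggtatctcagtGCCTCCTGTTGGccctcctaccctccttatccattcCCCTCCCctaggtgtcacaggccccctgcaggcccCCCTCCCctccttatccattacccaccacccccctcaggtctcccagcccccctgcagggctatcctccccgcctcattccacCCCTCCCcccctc

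GGGAGGG occurred once in the *CTCF* window, at position -98 from the start site, 4 times in that of *MAZ* and 3 times in that of *LDB1*; in these last windows some matches overlap each other. It occurred in each of the 3 *CTCFL* windows and in none of those of *YY1*, *ZNF143* and *VEZF1*. Of all 35116 promoter windows of this length, 24.7% hold it. The CTCF core was found in 1 of the 9 windows, the *CTCFL* window shown, where it begins at position -167; 2.02% of all windows hold it. The motif AANATGGC of YY1, in which N is any base, and the core motif of ZNF143, both searched on either strand, were found in 0 of the 9 windows, compared with 3.86% and 0.934% of all windows. The *MAZ* window is 88.8% and the *YY1* window 83.2% G and C, against a median of 58% over all windows. These matches describe the letters only, and binding of any factor was not measured here.

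The genes with the most similar pattern were found by the Euclidean distance of log2 CPM, centred per gene, over the 6 libraries. For *CTCF* these were *HDAC3*, *MRFAP1* and *ZNF320*, at distances of 0.05, 0.06 and 0.07. For *MAZ* they were *KIAA1143*, *UQCRQ* and *MRPL9*, also at distances of 0.05, 0.06 and 0.07. *UQCRQ* and *MRPL9* encode mitochondrial proteins, and *HDAC3* a histone deacetylase. Their log2 fold changes in control cells against 0 h were -0.34 for *HDAC3*, -0.52 for *UQCRQ* and -0.59 for *MRPL9*. The distances describe these libraries and were taken as the smallest among 14757 genes.

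Partners and relatives of the factors were examined in 6 lists of 56 genes, of which 49 were tested. In control cells against 0 h, 8 were called higher and 15 lower, 16.3% and 30.6% of those tested, beside 25.4% and 22.9% of all tested genes. In CTCF-depleted cells against 0 h, 9 were higher and 14 lower, 18.4% and 28.6%, beside 27.2% and 25.2% of all tested genes. In CTCF-depleted against control cells, 3 were called higher and 1 lower, 6.12% and 2.04%, beside 5.41% and 7.03% of all tested genes. An adjusted p below 0.01 at any fold change was reached here by 24 of the 49, beside 29.4% of all tested genes. By list these were 7 of 9 LDB1 cofactors, 6 of 14 YY1 relatives and INO80 subunits and 3 of 7 CTCF interaction partners. The rest were 2 of 3 ZNF143 relatives, 2 of 4 MAZ and VEZF1 relatives and 4 of 12 other nuclear architecture genes. The median log2 fold change upon depletion was -0.06 over the lists and -0.03 over all tested genes.

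Of 15 listed cofactors of LDB1, 9 were tested; *LDB2*, *LMO1* and *LMO3* had no counts, and *TAL1*, *GATA1* and *GATA2* had at most 5, 3 and 2 counts in any library. In control cells 4 of the 9 were called higher and 3 lower than at 0 h, beside 25.4% and 22.9% of all tested genes. Upon depletion 1 was called higher and 1 lower, beside 5.41% and 7.03%. *LMO2*, a LIM domain protein that bridges LDB1 to DNA-binding factors, rose from 9.82 ± 0.75 CPM at 0 h to 331 ± 0.18 CPM in control cells (SD, n = 2 each), with log2FC 5.06 ± 0.07 SE and an edgeR adjusted p = 1.52e-52. *TCF3*, one of the listed genes that encode E proteins, fell from 641 ± 39.6 to 186 ± 0.20 CPM (log2FC -1.79). These cofactors thus moved in opposite directions during conversion.

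*SSBP2*, a single-stranded DNA-binding protein that stabilizes LDB1, measured 106 and 108 CPM at 0 h, 34.9 and 37.1 CPM in control and 79.2 and 86.2 CPM in CTCF-depleted libraries. The CTCF-depleted libraries lay between the other groups without overlap. It fell during conversion with CTCF (log2FC -1.58 ± 0.08 SE, edgeR adjusted p = 2.60e-26) and was higher upon depletion than in control cells (log2FC 1.20 ± 0.08 SE, edgeR adjusted p = 2.68e-19). In CTCF-depleted cells the change from 0 h was -0.38, below the fold change threshold. The listed relatives *SSBP3* and *SSBP4* were also higher upon depletion, with smaller changes that were not called. Their log2FC values were 0.40 and 0.30 (edgeR adjusted p = 2.98e-06 and 1.40e-04). *LYL1*, a basic helix-loop-helix factor found in LDB1 complexes of blood cells, measured 22.4 and 23.6 CPM at 0 h, 79.6 and 77.5 CPM in control and 46.6 and 51.3 CPM in CTCF-depleted libraries. It rose during conversion in either condition and was lower upon depletion than in control cells (log2FC -0.68 ± 0.08 SE, edgeR adjusted p = 7.64e-11). Without CTCF-depleted replicate 1 its log2 fold change was -0.58 and the call was lost.

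Of 15 YY1 relatives and subunits of INO80, the chromatin remodeller that contains YY1, 14 were tested, and *ZFP42* had no counts. In control cells 2 were higher in edgeR at an unadjusted p below 0.05, beside 38.7% of all tested genes. At the thresholds edgeR called 0 higher, beside 25.4% of all tested genes, and DESeq2 also called 0. Both called 5 of the 14 lower, beside 22.9% of all tested genes in edgeR, among them *INO80C* (log2FC -1.22), *RUVBL1* (-0.80), *RUVBL2* (-0.79) and *ACTR5* (-0.78). Upon depletion edgeR called 2 higher, beside 5.41% of all tested genes, and DESeq2 called 1. Both called 0 lower, beside 7.03% of all tested genes in edgeR. At an unadjusted p below 0.05, 3 were lower, beside 26.2% of all tested genes in edgeR. *NFRKB*, an INO80 subunit, measured 64.2 and 61.8 CPM at 0 h, 54.2 and 57.5 CPM in control and 96.9 and 92.3 CPM in CTCF-depleted libraries, highest in the latter (log2FC 0.76 ± 0.07 SE, edgeR adjusted p = 5.82e-13 against control). *YY2*, a retrotransposed relative of *YY1*, measured 6.70 and 5.93 CPM at 0 h, 4.85 and 4.45 CPM in control and 6.39 and 8.75 CPM in CTCF-depleted libraries. It was called higher upon depletion (log2FC 0.70 ± 0.21 SE, edgeR adjusted p = 0.00649), while DESeq2 gave an adjusted p of 0.0657. The call was lost in 3 of 4 omissions of a library at 96 h, with edgeR adjusted p-values of 0.0310 without control replicate 1, 0.0652 without control replicate 2 and 0.182 without CTCF-depleted replicate 2, where the log2FC was 0.49. *YY1* and *YY2* are similar in sequence, and whether the counting split reads between them was not tested.

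Of 7 CTCF interaction partners, 3 were called lower in control cells than at 0 h, beside 22.9% of all tested genes. 0 were called higher by edgeR or DESeq2, beside 25.4% of all tested genes in edgeR. At an unadjusted p below 0.05 also 0 were higher, beside 38.7% of all tested genes in edgeR. *TOP2B*, a topoisomerase found at CTCF sites, fell from 4169 ± 161 to 801 ± 3.17 CPM (SD, n = 2 each; log2FC -2.38 ± 0.05 SE, edgeR adjusted p = 2.09e-44). *PARP1*, a poly(ADP-ribose) polymerase, and *NPM1*, the nucleolar protein nucleophosmin, had log2 fold changes of -1.18 and -1.06. Upon depletion edgeR and DESeq2 called 0 of the 7 partners, beside 5.41% of all tested genes called higher and 7.03% lower in edgeR. In edgeR 6 were lower at an unadjusted p below 0.05, beside 26.2% of all tested genes. An adjusted p below 0.01, at a smaller fold change, was reached by 3, beside 29.4% of all tested genes at any fold change. These were *YBX1* with -0.35, *TOP2B* with -0.23 and *PARP1* with -0.22. Of the 3 relatives and cofactors of ZNF143, *HCFC1* and *THAP11*, which act with it at promoters, were called lower at 96 h in control cells. Their log2 fold changes were -0.71 and -0.68, and 22.9% of all tested genes were called lower. Upon depletion 0 of 3 were called by edgeR or DESeq2, beside 5.41% of all tested genes called higher and 7.03% lower in edgeR. At an unadjusted p below 0.05, 1 was higher and 1 lower, beside 19.4% and 26.2% of all tested genes in edgeR.

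Among 4 zinc finger genes related to *MAZ* and *VEZF1*, *ZBTB7A* rose from 68.2 ± 1.30 to 190.5 ± 6.67 CPM in control cells (SD, n = 2 each). Its log2 fold change was 1.48 (adjusted p = 2.54e-30 from edgeR). Upon depletion 0 of the 4 were called by edgeR or DESeq2, beside 5.41% of all tested genes called higher and 7.03% lower in edgeR. At an unadjusted p below 0.05, 1 was higher and 1 lower, beside 19.4% and 26.2% of all tested genes in edgeR. Of 12 other nuclear architecture genes, 3 were called higher and 2 lower in control cells than at 0 h, near the 25.4% and 22.9% of all tested genes. *LMNA*, which encodes the A-type lamins, rose from 0.62 ± 0.14 CPM, or 7 counts in each 0 h library, to 21.8 ± 0.86 CPM (log2FC 5.14 ± 0.23 SE, edgeR adjusted p = 1.25e-27). *LMNB2*, a B-type lamin, had a log2 fold change of -1.08, *LBR*, the lamin B receptor, of 0.96 and *SATB1*, a chromatin organizer of lymphocytes, of 0.94. Upon depletion edgeR and DESeq2 called 0 of the 12 genes, beside 5.41% of all tested genes called higher and 7.03% lower in edgeR. In edgeR 4 were lower at an unadjusted p below 0.05, near the 26.2% of all tested genes. An adjusted p below 0.01, at a smaller fold change, was reached by 4, near the 29.4% of all tested genes at any fold change.

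**Figure D4:**
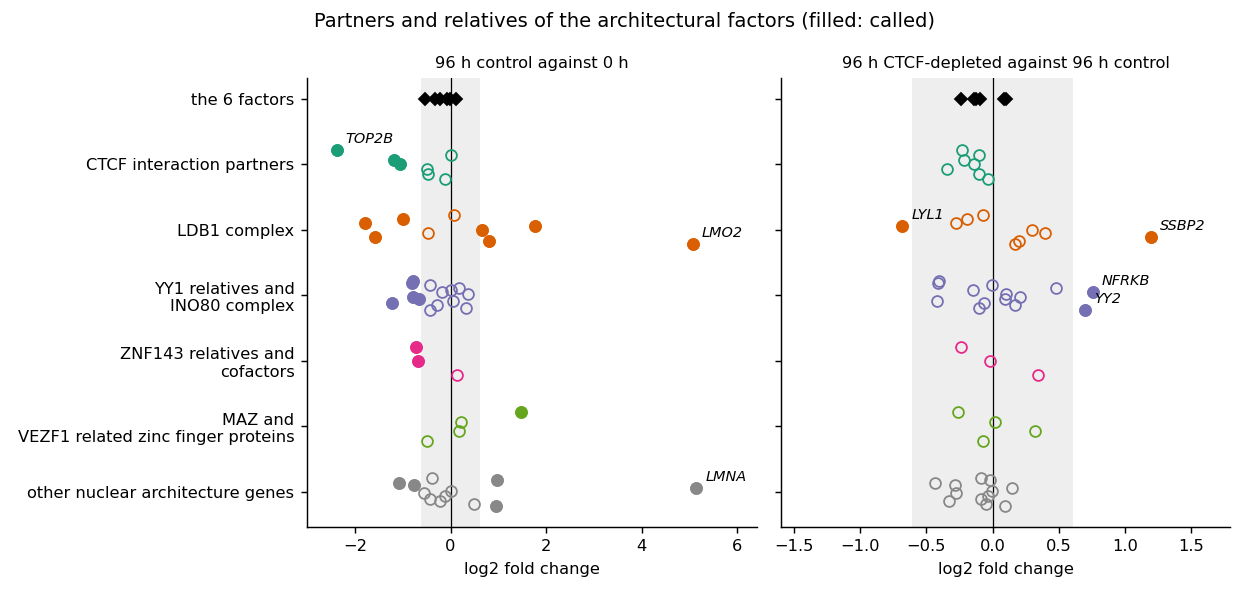
Log2 fold change (horizontal axes, of different range) of the 6 factors (diamonds) and of 49 tested partners and relatives (circles, filled where called) by list; the left panel compares 96 h control with 0 h and the right panel CTCF-depleted with control cells at 96 h, so that the panels share the control libraries. The diamonds cluster around 0 in both panels, whereas *LMO2* and *LMNA* exceed 5 on the left and *SSBP2* reaches 1.20 on the right.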

How the data were processed

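The authors aligned stranded, ribosome-depleted total RNA-seq reads with STAR (version 2.6.1d) to hg38 and counted reads per gene with featureCounts (version 2.0.6), per the labels. The annotation release and strand setting are not given in the sources used here. The deposited values are raw counts per gene symbol in 6 libraries.

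Counts were tested with edgeR 4.0.16 (quasi-likelihood test, TMM scaling, filterByExpr, condition as the only term, 6 libraries, Benjamini-Hochberg adjustment over 14758 genes) in R 4.3.3, and with DESeq2 1.42.0 as an alternative. Other alternatives were RLE scaling, other count filters, a fit on 4 libraries, a replicate block, other thresholds and leaving out each library. A gene was called when its adjusted p was under 0.01 and its log2 fold change beyond 0.6 in either direction. The procedure was tested on simulated data. Exon lengths came from GENCODE 44. Named partner genes were all those called in CTCF-depleted against control cells and, per list, up to 4 with the largest fold change among those called in control cells against 0 h. *SSBP3*, *SSBP4* and *YBX1* are given in addition, from the main fit only. The genes nearest in profile were taken for *CTCF* and for called factors, 3 each. Motifs were searched in RefSeq promoter windows. The members and lists were chosen with earlier results of these data known. With 2 libraries per group, an exact permutation test cannot go below p = 0.333. Same-numbered replicates did not deviate together (correlations of -0.02, 0.01 and -0.03), so they were not treated as pairs. A further marker list is not reported here.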

Additional observations from a re-analysis of the deposited data

Results flagged for a closer look

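The log2 change of *YY1* from 0 h was -0.08 in control cells and -0.32 after depletion. The difference, tested directly as CTCF-depleted against control in edgeR's quasi-likelihood test, was -0.24 (adjusted p = 9.33e-04). It is short of the fold change threshold and was not called. *YY1* was flagged as the single factor with an adjusted p below 0.01 here, a level that 29.4% of all tested genes reached. A smaller absolute log2 fold change was found for 51.1% of all tested genes. The level of *YY1* was lower in 2 of 2 CTCF-depleted libraries than in either control library. Such a lack of overlap, in either direction, held for 67.9% of all tested genes and for all 6 factors. With DESeq2 the adjusted p was 0.0150, above the threshold of 0.01. The log2 fold change stayed negative over the alternatives, omissions of a library included, and ranged from -0.26 to -0.16.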

How the results depend on the processing

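With 2 libraries per group, single libraries weigh heavily. In control cells against 0 h, an adjusted p below 0.05 without a fold threshold called 3 factors, 5500 genes overall and 25 partners lower; a fold threshold of 1 on the log2 scale called 2075 genes lower and 4 partners higher and 7 lower. In CTCF-depleted against control cells, the first setting called 2 factors lower, 2375 genes higher and 3330 lower, and 10 partners higher and 16 lower; the second called 409 genes higher and 436 lower, and 1 partner higher and 0 lower. In CTCF-depleted cells against 0 h, the first called 4 factors and 5658 genes lower, and 15 partners higher and 26 lower; the second called 0 factors lower. Leaving out 1 library at a time, 0 to 1 factors were called lower in CTCF-depleted cells against 0 h, the call of *MAZ* being lost without CTCF-depleted replicate 2, and upon depletion 0 to 1 partners were called lower and 2 to 4 higher. Among the named genes that were followed over these settings, directions turned for 5, at values near 0. Over these omissions *ZNF143* in control cells against 0 h ranged from -0.10 to 0.058, and *VEZF1* in CTCF-depleted cells against 0 h from -0.089 to 0.072. Upon depletion, *INO80C* ranged from -0.14 to 0.092, *THAP11* from -0.049 to 0.078 and *LBR* from -0.022 to 0.054; without a count filter *THAP11* was 0.013 and *LBR* 0.016, and with only the 4 libraries at 96 h they were 0.013 and 0.017. Upon depletion, omissions of a library at 96 h gave 0.10 to 0.16 for *CTCF*, 0.054 to 0.18 for *LDB1* and -0.093 to -0.024 for *ZNF143*. The cause of these shifts was not tested. With the replicate number as a block, 3730 genes were called higher and 3360 lower in control cells against 0 h, and no call of the 6 factors changed.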
